A study of Sus scrofa domesticus with 4 samples.

Results

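The genes described here make cholesterol or sense it, in slices of pig uterine muscle cultured with the neuropeptide orexin B. The list of 7 genes was HMGCS1, IDI1, FDFT1, SQLE, LSS, DHCR7 and INSIG1, chosen by name, and a probe counted where its RefSeq mRNA accession belonged to a listed gene in the Sscrofa11.1 gene table. Of the 7 genes, 2 matched: SQLE with 3 probes and INSIG1 with 2, among 2971 named genes with 6599 probes on the array. The other members, HMGCS1, IDI1, FDFT1, LSS and DHCR7, matched no probe by this rule and are not analysed here. IDI1 is not in the gene table used, and probes that carry other kinds of accession were not assigned to genes, so the array may still hold probes for these members. The list's working name also speaks of uptake, but none of the 7 is an uptake receptor. The members' results therefore concern 1 enzyme and 1 regulator, and other genes of the pathway stand beside them.

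The animals were 4 gilts, Large White x Polish Landrace, 7 to 8 months old and on days 15 to 16 of gestation, when the pig conceptus implants. Slices from the middle of the uterine horns were kept in culture medium, first for 2 h and then for 24 h with 10 nM orexin B or with no treatment, in duplicate cultures within 4 experiments. Each of 4 Agilent arrays of 2 colours, numbered 1 to 4, received RNA from both conditions, and the labels do not say whether both RNAs of an array came from the same gilt. By the dye field of each array, treated RNA carried Cy5 on arrays 1 and 3 but Cy3 on arrays 2 and 4. The labelling protocol, in contrast, puts untreated RNA in Cy3 and treated RNA in Cy5 with no swap. The dye fields were followed, as the signs of the deposited series table also do, and on the protocol's reading every ratio of arrays 2 and 4 has the opposite sign, which makes the mean of SQLE -0.41 and that of CYP51 -0.42. Ratios are given as log2 of the orexin B signal divided by the untreated signal, so that 0 means equal signal. Each p-value rests on these 4 arrays. The moderated test of limma combines a probe's own spread over the arrays with the spread typical of all tested probes.

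Cholesterol is built from acetyl units through the mevalonate pathway to squalene, and squalene is then oxidised, closed into rings and trimmed to cholesterol. Cells set the rate by feedback. When sterol is low, the escort SCAP carries the SREBP transcription factors to the Golgi, where they are cut and released to switch on the enzymes' genes, and when sterol is high the INSIG proteins hold SCAP back in the endoplasmic reticulum. In the pregnant uterus cholesterol serves as membrane lipid of muscle cells, where it affects contractile signalling, and as the starting material of steroid hormones.

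Of 43603 probes, 19881 were bright enough to test, and between 37.6% and 58.2% of probes were well above background in a channel of an array. The moderated test of limma called 0 probes (0%) at the adjusted threshold of 0.05, the smallest adjusted p being 0.596. Without adjustment, 1534 probes had a p under 0.05 (7.72%), 856 higher (4.31%) and 678 lower (3.41%). An unmoderated test on the same ratios called 0 and 1195 probes at these thresholds. With each array centred on its median in place of the intensity-dependent loess curve, that split was 172 higher and 5 lower. Log2 ratios of array pairs correlated across probes, which are not independent, at r between -0.18 and 0.36. Of 14 listed smooth muscle markers, 9 had a probe, and all 9 were bright enough to test. So were all 8 macrophage markers with a probe, and 1959 of the 2971 named genes, so brightness alone does not identify the tissue. In slices of mixed tissue, fewer cells of a type and less RNA per cell cannot be told apart.

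SQLE encodes squalene epoxidase, which adds oxygen to squalene in the first oxygen-requiring and a rate-limiting step of the sterol arm. Its brightest probe read 2090.2, 11487, 2652 and 2095 units of normalised intensity in orexin B RNA on arrays 1 to 4, and 1708, 4746, 4017 and 2042 units in untreated RNA. The arrays were not scaled to each other, so these levels are to be set against each other only within an array. On array 2 SQLE was 2.42-fold higher with orexin B and on array 3 it was 1.51-fold lower, while arrays 1 and 4 were at 1.22-fold and 1.03-fold.

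**Figure D1:**
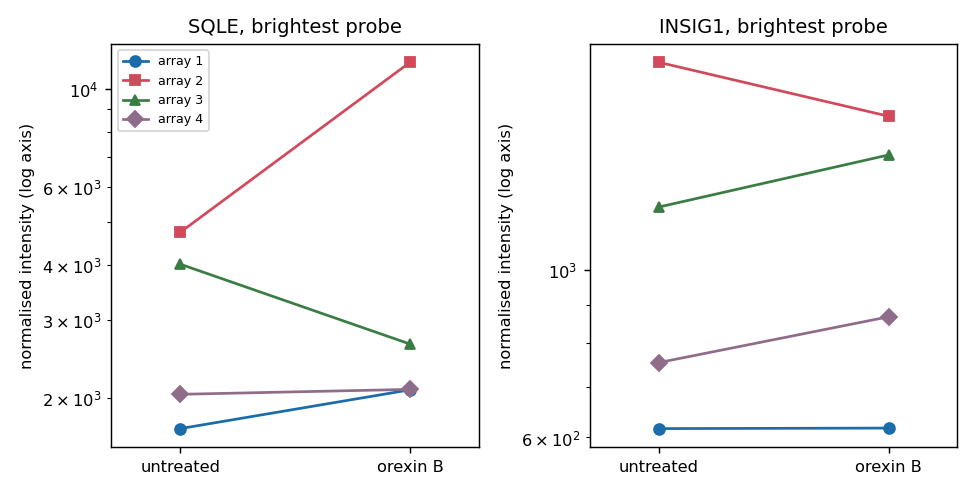
Normalised intensity of the brightest SQLE probe (left) and the brightest INSIG1 probe (right) in untreated and orexin B RNA, on log axes, with a line for each of the 4 arrays. The SQLE line of array 2 climbs from 4746 to 11487 and that of array 3 falls from 4017 to 2652, while the INSIG1 lines run nearly level.

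As log2 ratios, SQLE had 0.29, 1.28, -0.60 and 0.037 on arrays 1 to 4. Array 3 lay below 0 and the other 3 arrays above it, with array 4 close to equal signal. The mean was 0.25 ± 0.27 (moderated standard error, 4 arrays), a 1.19-fold difference that did not pass the test (adjusted p = 0.850). Its 95% interval ran from -0.40 to 0.90, that is from 1.32-fold lower to 1.87-fold higher with orexin B. The unmoderated standard error, from the array values of this SQLE probe alone, was larger at 0.39. The sign of a mean change of SQLE was therefore not settled with 4 arrays. The mean depended on single arrays: it was -0.090 ± 0.19 without replicate 2 and 0.53 ± 0.25 without replicate 3.

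The array values of SQLE lay at the edges of all tested probes. On array 2 its ratio was at percentile 98.2 of the tested probes and on array 3 at percentile 1.86, against 85.5 on array 1 and 54.8 on array 4. The SD over the 4 arrays was 0.78, larger than in 94.3% of the 1959 tested named genes. Split by dye, the mean was -0.15 where Cy5 marked the treated RNA and 0.66 where Cy3 did. A dye term fitted beside the treatment was -0.41 ± 0.23 and did not pass (adjusted p = 0.514).

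The second SQLE probe was close to the brightest, and the third varied less. The second brightest had log2 ratios of 0.058, 1.32, -0.53 and 0.10 on arrays 1 to 4, and a mean of 0.24 ± 0.27 (adjusted p = 0.859). The third, the dimmest, had 0.40, 0.57, -0.27 and -0.13, and a mean of 0.14 ± 0.17 (adjusted p = 0.865), and in untreated RNA its signal cleared background on 3 arrays out of 4. The third probe was below 0 on 2 arrays, its SD over arrays was 0.41, and it lay at percentile 85.1 on array 2 and 13.9 on array 3. All 3 probes were highest on array 2 and lowest on array 3. On the same array the probes differed by an average SD of 0.22, whereas their mean differed between arrays by an SD of 0.64.

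INSIG1 encodes the endoplasmic reticulum protein that retains SCAP when sterol is plentiful, and its own gene is an SREBP target. Its brightest probe read 617, 1599, 1421 and 867 units in orexin B RNA on arrays 1 to 4 and 616, 1885, 1212 and 754 units in untreated RNA. The log2 ratios were 0.0023, -0.24, 0.23 and 0.20. Array 1 was at equal signal, array 2 was below 0, and arrays 3 and 4 were above it.

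The mean of INSIG1 was 0.049 ± 0.13, a 1.03-fold difference (adjusted p = 0.945), with a 95% interval from -0.25 to 0.35. After loess the data thus bound a mean change of this gene to between 1.19-fold lower and 1.28-fold higher, a narrower range than for SQLE. With median centring the standard error was 0.33 for INSIG1 and 0.29 for SQLE, and with Agilent's ratio 0.20 and 0.28. With median centring INSIG1 was thus bounded less closely than after loess, and not more closely than SQLE. The sign of the INSIG1 mean was not settled, since it was -0.011 without replicate 3, -0.0020 without replicate 4 and -0.018 with median centring. The second INSIG1 probe had -0.059, -0.13, 0.19 and 0.075, and a mean of 0.017 ± 0.12 (adjusted p = 0.984). The SD of INSIG1 over arrays was 0.22, larger than in 29.9% of tested genes.

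**Figure D2:**
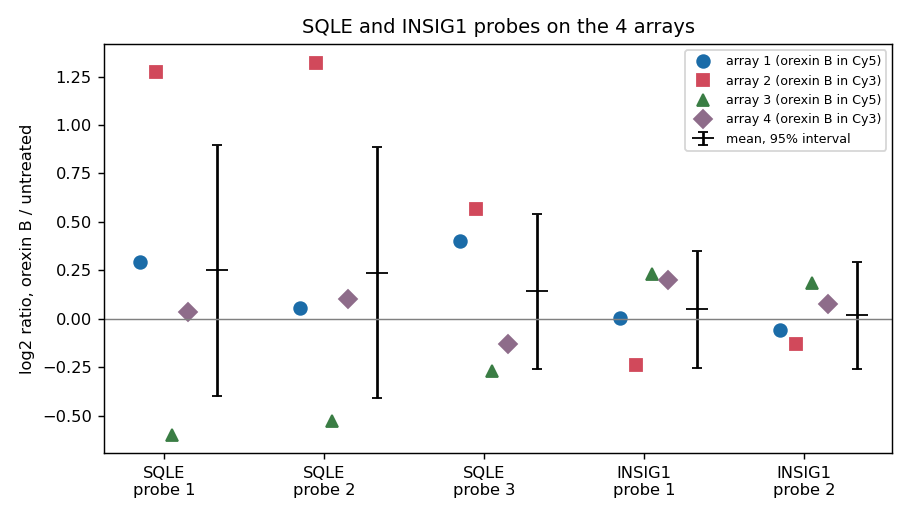
Log2 ratio of orexin B over untreated for the 3 SQLE and 2 INSIG1 probes, numbered from brightest to dimmest, with a point for each array and the mean with its 95% interval in black. Array 2 is the highest point of each SQLE probe and the lowest point of each INSIG1 probe, and all 5 intervals include 0.

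All 5 member probes had a mean above 0, where 54.1% of tested probes had one above and 45.9% one below. None of the 5 kept 1 sign over the 4 arrays, where 8.92% of tested probes were above 0 on all 4 and 7.08% below. SQLE and INSIG1 took opposite places on the same arrays. SQLE was highest on array 2 (1.28) and lowest on array 3 (-0.60), and INSIG1 was lowest on array 2 (-0.24) and highest on array 3 (0.23). The places of INSIG1 were the commonest over all tested genes, of which 38.5% were lowest on array 2 and 27.9% highest on array 3. Those of SQLE were less common, with 20.5% highest on array 2 and 24.7% lowest on array 3. For both members the order of arrays depended on the processing. With median centring SQLE read 1.03, 0.11, -0.14 and -0.41. The median of all tested probes then stood at 0.52, -0.52, 0.34 and -0.29, against 0.024, 0.021, 0.0042 and 0.0036 after loess. Relative to the median under median centring SQLE read 0.52, 0.63, -0.48 and -0.13, again highest on array 2 and lowest on array 3, and INSIG1 read 0.0063, -0.56, 0.27 and 0.16. Relative to the median after loess SQLE had 1.25 on array 2, so the 2 ways of processing still differed there once each median was taken off. The cause of that difference was not tested. With Agilent's own ratio INSIG1 was highest on array 4 and still lowest on array 2.

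Around the members, the synthesis pathway was set out as 21 genes, of which 7 matched a probe and all 7 were bright enough to test. No gene passed over all probes. By brightest probe, 4 of the 7 had a mean above 0 and 3 below, with a median of 0.017, against 53.8% above 0, 46.2% below and a median of 0.017 over all 1959 tested genes. At an unadjusted p under 0.05, again by brightest probe, 1 of the 7, MSMO1, was higher and 0 were lower, where 6.23% and 4.24% of tested genes were.

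In the mevalonate arm, the kinase PMVK had log2 ratios of -0.089, -0.69, -0.041 and -0.13 on arrays 1 to 4, below 0 on all 4 arrays as 6.94% of tested genes were, and a mean of -0.24 ± 0.15 (adjusted p = 0.741). The other PMVK probe was at 0.11 on array 1. FDPS, which makes farnesyl diphosphate, had -0.24, 0.24, -0.49 and 0.56 and a mean of 0.017 ± 0.19 (adjusted p = 0.991). By brightest probe PMVK was lowest on array 2 and FDPS on array 3. The second brightest FDPS probe had 0.35, 0.11, -0.30 and 0.49, also lowest on array 3. The dimmest had 0.29, -0.28, -0.019 and 0.27, lowest on array 2 as PMVK was. Whether these enzymes upstream of SQLE were lowest on the same array thus depended on the FDPS probe.

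In the sterol arm, downstream of SQLE, MSMO1 and CYP51 both remove methyl groups from the ring system. MSMO1 had 0.41, 0.96, 0.084 and 0.19, above 0 on all 4 arrays as 8.37% of tested genes were, and a mean of 0.41 ± 0.17 (unadjusted p = 0.042 and adjusted p = 0.632 in limma). Its other probes were below 0 on array 3, at -0.070 and -0.038, and 1 of them also on array 1, at -0.18. The unadjusted p of MSMO1 in limma was 0.287 with median centring, 0.068 with Agilent's ratio, 0.105 over the mean of its probes, and 0.097, 0.115 and 0.052 without replicates 1, 2 and 4. CYP51, lanosterol demethylase, had 0.030, 1.07, -0.14 and 0.52 and a mean of 0.37 ± 0.21 (adjusted p = 0.723). Its 4 probes had means between 0.29 and 0.43, and each was higher where Cy3 marked the treated RNA. By brightest probe the CYP51 mean was -0.055 on the arrays with treated RNA in Cy5 and 0.79 on those with it in Cy3. The dye term of CYP51 was -0.42 ± 0.13 and did not pass (adjusted p = 0.309 in limma). Without replicate 2 the mean of MSMO1 was 0.23 and that of CYP51 was 0.13.

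By brightest probe, the later enzymes of the sterol arm stayed closer to 0. NSDHL, a dehydrogenase of the same demethylation complex as MSMO1, had -0.34, -0.28, 0.037 and 0.029 and a mean of -0.14 ± 0.12 (adjusted p = 0.816). Its dimmer probe had 0.011, -0.34, 0.61 and -0.055 and a mean of 0.057 ± 0.17. The SD over arrays of that dimmer probe was 0.40, against 0.39 for the brightest MSMO1 probe. HSD17B7, the ketoreductase of that complex, had 0.18, -0.16, -0.28 and -0.031 and a mean of -0.071 ± 0.12 (adjusted p = 0.910). Neither gene was highest on array 2. By brightest probe, SQLE, CYP51 and MSMO1 were the 3 of the 7 synthesis genes highest on that array, where 20.5% of tested genes had their highest value. Also by brightest probe, 5 of the 7 were lowest on array 3, where 24.7% of tested genes were. The dimmest MSMO1 probe was instead lowest on array 1, and the dimmest FDPS probe on array 2. With median centring SQLE, CYP51 and MSMO1 were highest on array 1 instead, and lowest on array 4 (SQLE, MSMO1) or array 2 (CYP51). Relative to the median of tested probes SQLE and CYP51 were again highest on array 2 and lowest on array 3, and MSMO1 was not.

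**Figure D3:**
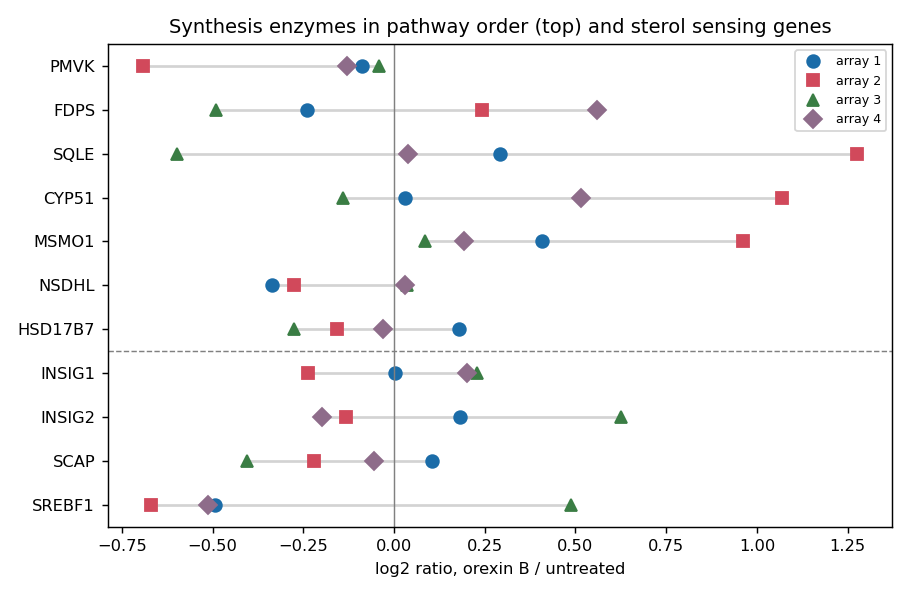
Log2 ratio of orexin B over untreated on each of the 4 arrays for the 7 tested synthesis enzymes in pathway order (above the dashed line) and for 4 sterol sensing genes (below it), by brightest probe after loess. Array 2 is the rightmost point for SQLE, CYP51 and MSMO1, and the leftmost for PMVK, INSIG1 and SREBF1.

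Among sterol sensing genes, 5 of the 13 listed matched and were tested, 2 with a mean above 0 and 3 below, with a median of -0.093. SREBF1, the gene of SREBP-1, had -0.49, -0.67, 0.49 and -0.51 on arrays 1 to 4 and a mean of -0.30 ± 0.20 (adjusted p = 0.755). It was above 0 on array 3 alone, the array where SQLE was lowest. Its second probe had -0.20, -0.47, 0.50 and -0.27. INSIG2, the paralogue of INSIG1, had 0.18, -0.13, 0.62 and -0.20 and a mean of 0.12 ± 0.16 (adjusted p = 0.883). SCAP had 0.11, -0.22, -0.40 and -0.056 and a mean of -0.14 ± 0.13 (adjusted p = 0.810), and the sterol receptor NR1H3 had a mean of -0.093 ± 0.14 (adjusted p = 0.897). SREBF2, the gene of the SREBP that acts mainly on cholesterol enzymes, matched no probe.

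Uptake and lysosomal release were seen through 6 of 9 listed genes, 3 above and 3 below 0, with a median of -0.058. NPC2, which carries cholesterol inside lysosomes, had -0.62, -0.64, -0.42 and 0.62, and a mean of -0.27 ± 0.22 (adjusted p = 0.795). Its second probe had -0.28, -1.03, 0.051 and 0.57, so both were below 0 on arrays 1 and 2 and above it on array 4. Its membrane partner NPC1 had a mean of -0.16 ± 0.17 (adjusted p = 0.845). The receptor VLDLR had a mean of -0.18 ± 0.19 (adjusted p = 0.840), and STARD3, a lipid transfer protein of late endosomes, 0.10 ± 0.13 (adjusted p = 0.867). In efflux and esterification, 3 of 11 listed genes were tested: APOE had a mean of -0.25 ± 0.21 (adjusted p = 0.802), APOA1 0.067 ± 0.14 (adjusted p = 0.927) and LCAT -0.020 ± 0.11 (adjusted p = 0.979).

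SREBPs also act on fatty acid genes, and 7 of the 12 listed were tested, 4 above and 3 below 0, with a median of 0.018. PNPLA3, a lipid droplet protein, had 0.067, 0.59, 0.34 and 0.30, above 0 on all arrays, and a mean of 0.33 ± 0.13 (unadjusted p = 0.037 and adjusted p = 0.624 in limma). Its unadjusted p was 0.433 with median centring, 0.096 with Agilent's ratio, and 0.098, 0.092 and 0.090 without replicates 2, 3 and 4. The citrate lyase ACLY, which supplies acetyl units, had 0.026, 0.43, -0.18 and 0.22 and a mean of 0.12 ± 0.14 (adjusted p = 0.850). The desaturase SCD, seen by 8 probes, had a mean of -0.21 ± 0.14 (adjusted p = 0.752) by its brightest, and the acetate-activating ACSS2 had -0.21 ± 0.21 (adjusted p = 0.824). Of genes that turn cholesterol into steroids, 2 of 6 were bright enough. CYP19A1, aromatase, had 0.35, 0.29, 0.22 and 0.14 and a mean of 0.25 ± 0.11 (adjusted p = 0.644), and pigs carry near-identical aromatase copies that a probe may not separate. CYP19A1 is also among the 6 listed markers of conceptus trophoblast, of which the other tested ones were GATA2, with a mean of 0.20 ± 0.12, and IL1B2, with 0.49 ± 0.17 (adjusted p = 0.596). Their part in the CYP19A1 ratio was not tested. HSD3B1 had 0.079 ± 0.12 (adjusted p = 0.892). Of 6 genes of isoprenoid branches, FNTB (-0.21 ± 0.14, adjusted p = 0.755) and RABGGTA (0.040 ± 0.15, adjusted p = 0.961) were tested.

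Over all these lists, 32 of 78 genes were tested, 17 with a mean above 0 and 15 below, with a median of 0.018. By brightest probe, MSMO1 and PNPLA3 were higher at an unadjusted p under 0.05 and 0 genes were lower. That is 2 of 32 in either direction, where 10.5% of all tested genes were. Neither gene was under 0.05 with median centring, Agilent's ratio or the unmoderated test, nor without replicate 2 or replicate 4.

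**Figure D4:**
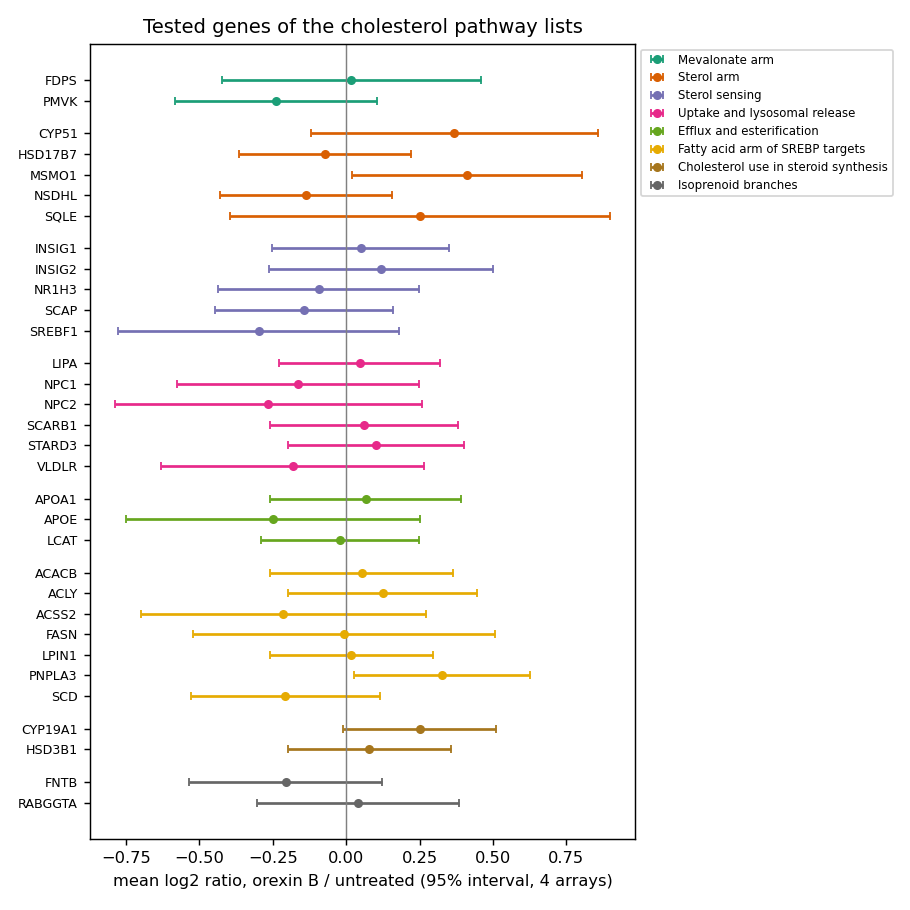
Mean log2 ratio of orexin B over untreated with its 95% interval over 4 arrays for the 32 tested genes of the pathway lists, by brightest probe, coloured by list. The intervals of MSMO1 and PNPLA3 lie above 0, those of the other 30 genes include it, and the interval of SQLE, from -0.40 to 0.90, is the widest.

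Likeness was measured as the root mean square difference over the 4 arrays. To the median of SQLE and INSIG1 on each array (0.15, 0.52, -0.18 and 0.12), the nearest of 1935 other tested genes with a value on every array were TMX4 (0.053), NAMPT (0.070), SLC30A5 (0.083), TLR3 (0.085) and ACLY (0.092). To INSIG1 alone they were PGK1 (0.033), RNF114 (0.047), HTR2A (0.049), SLC24A2 (0.056) and FUT8 (0.060). By brightest probe ACLY was thus the only gene of the pathway lists among the nearest 5 of either reference. Only 6 of the 1935 genes were synthesis enzymes, so it says little that none of them was among the nearest 5. The first reference also lies midway between 2 genes that took opposite places on arrays 2 and 3. The second ACLY probe had 0.14, 0.078, 0.066 and 0.15 on arrays 1 to 4, so the likeness rests on the brightest probe.

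Markers of other cells differed between arrays as well. The 2 tested epithelial markers of 8 listed, EPCAM and KRT8, had array medians of 0.33, -0.46, -2.09 and 0.89, lowest on array 3, where SQLE was also lowest. The 8 tested macrophage markers of 10 listed had 0.69, 0.081, 0.90 and 0.77, lowest on array 2 and highest on array 3. These places were the reverse of SQLE and also the commonest over all tested genes. The 9 smooth muscle markers had 0.0035, -1.13, 0.16 and -1.21, low on both arrays with orexin B in Cy3, and the 4 tested fibroblast markers of 6 had -0.016, -0.72, -0.0016 and -0.77. Of the remaining lists, 4 tested endothelial markers had array medians of 0.41, 0.093, 0.016 and -0.019, 2 adipocyte markers 0.22, -0.063, 0.10 and 0.039, and 3 trophoblast markers 0.35, 0.29, 0.24 and 0.14. The 1 tested marker of T and NK cells, GZMB, had 0.0021, -0.16, 0.11 and -0.12. The part of these cells in the SQLE and INSIG1 ratios was not tested.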

How the data were processed

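Per the file headers, the authors read the arrays with Agilent Feature Extraction 10.7.3.1. Used here were the deposited intensity values (median of spot and of local background) and the deposited log10 ratios of red over green. The deposited series table holds log2 ratios: 100% of its values lay within 0.01 of the processed log2 ratio once arrays 2 and 4 were turned, with column medians of -0.27, -0.082, -0.20 and -0.094. The genome build is not given in the sources used here, so coordinates were left out.

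Each array's dye field set the direction of its ratio, against the labelling protocol, which records no swap. In R 4.3.3 with limma 3.58.1, background was corrected by normexp (offset 50) and ratios were normalized by loess, control spots weighing 0. Spots marked as outliers (31 to 138 per array) were left out. Tested probes cleared background on every array for at least 1 of the conditions and had an unmarked spot on 3 or more. An intercept model (lmFit, eBayes, 3 residual and 4.10 prior degrees of freedom) gave two-sided p-values, Benjamini-Hochberg adjusted over 19881 probes. The fit was tried on simulated ratios, drawn independently for each probe and array and without a dye effect. That trial had to recover the mean changes put in, and does not show that the p-values hold for these arrays. Through the Sscrofa11.1 gene table, ignoring versions, 6700 probes matched. Some genes of the lists are not reported here and enter no list count. A gene is given by its brightest tested probe. Members, lists and tests were chosen with earlier results of these data known. Named were the members, up to 4 tested genes of each list by smallest p, and the 5 nearest by likeness. HSD17B7, the nearest genes to SQLE, and genes named as untested or unmatched were chosen after values were seen. Figures used Python 3.11.15 and matplotlib 3.10.9.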

Additional observations from a re-analysis of the deposited data

Results flagged for a closer look

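The 4 array values were searched for a single distant one in 42 sets, and 3 sets held one, where chance gives about 2.1. PMVK, phosphomevalonate kinase, had -0.69 on array 2 against -0.13 to -0.041 on the other arrays. SREBF1 had 0.49 on array 3 against -0.67 to -0.49 on the others. HSD3B1 had 0.31 on array 1 against -0.023 to 0.021. No SQLE or INSIG1 probe had such a value.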

How the results depend on the processing

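No probe passed the adjusted threshold under any alternative run across all probes. The count at an unadjusted p under 0.05, 1534 in the reported fit, was 177 with median centring (172 higher, 5 lower), 2302 with no filter on dim probes, 2382 with dye as a further term, and between 727 (without replicate 4) and 1922 (without replicate 3) when replicates were left out in turn. Leaving out replicates, SQLE ranged from -0.090 to 0.53, INSIG1 from -0.011 to 0.14, FDPS from -0.16 to 0.19, INSIG2 from -0.050 to 0.22, NR1H3 from -0.22 to 0.024, APOA1 from -0.034 to 0.16, LCAT from -0.054 to 0.036 and RABGGTA from -0.051 to 0.16, and the median of the 7 synthesis genes from -0.084 to 0.19. Keeping only the arrays that share a slide (2, 3 and 4) is the same fit as leaving out replicate 1, with RABGGTA at -0.051. With median centring INSIG1 was -0.018, FDPS -0.090, APOA1 -0.030 and the median of the synthesis genes -0.090. Agilent's processed ratio and the series table both gave FDPS -0.0029 and LCAT 0.15. Taken as Cy5 over Cy3 without turning, which follows the labelling protocol instead of each array's dye field, SQLE was -0.41, the median of SQLE and INSIG1 -0.17, that of the 7 synthesis genes -0.17, CYP51 -0.42, FDPS -0.38, MSMO1 -0.17, PNPLA3 -0.12, ACLY -0.20, PMVK 0.17, SREBF1 0.29, NR1H3 0.14, VLDLR 0.15, NPC1 0.18, APOE 0.44, LCAT 0.053, SCD 0.19, ACSS2 0.44 and FNTB 0.23. MSMO1 and PNPLA3 were no longer under an unadjusted 0.05 with several alternatives, the unmoderated test among them, while CYP51 was under it in limma with dye as a further term and without replicate 3. CYP19A1, at an unadjusted p of 0.058 in the reported limma fit, had 0.012 in the unmoderated test. In limma with no filter on dim probes it had 0.016. Without turning, FDPS, APOE and ACSS2 were under an unadjusted 0.05 in limma. The cause of these shifts was not tested, beyond what fewer arrays, more probes or a turned sign fix by construction. The test on ratios already paired treated with untreated RNA within each array, and all 4 arrays form 1 group. Pairing by gilt could not be checked, as the labels do not say whether both RNAs of an array came from the same gilt. The planned search of promoters for motifs was not run. The number of arrays limits precision throughout, and the dimmest SQLE probe lies near background.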

Other observations

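The genes nearest to SQLE alone, a reference added after the values were seen, were SLA-DQB1 (root mean square difference 0.070), ID1 (0.12), RSF1 (0.21), SIX4 (0.21) and CD47 (0.22) among 1935 genes. Other sterol enzymes followed at some distance: CYP51 was number 27 (0.37) and MSMO1 number 39 (0.39). FDPS was number 345, HSD17B7 number 663, NSDHL number 1268 and PMVK number 1659. SLA-DQB1, a class II antigen gene, had log2 ratios of 0.36, 1.29, -0.69 and 0.12 on arrays 1 to 4, and ID1 had 0.47, 1.31, -0.72 and 0.13. These values rest on 4 arrays that the genes share, and describe them only.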
